A study of Mus musculus with 11 samples.

Results

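The genes described here are 44 genes of laminins, basement membrane and integrins, out of 17021 genes that the array probes name. They comprise laminin chains, basement membrane collagens and their partners, matrix glycoproteins, the cell surface receptors that hold these proteins, and proteases and inhibitors that act on the matrix. *Lama2* prompted the choice of these genes because its signal fell with both siRNAs: it was chosen by its array signal against control. The other 43 genes were listed by family, with earlier results of these data known. The level of *Lama2* against control is therefore given as a description with no test, and *Lama2* is left out of all counts.

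The data come from 11 single-color microarrays of MLTCs, the MLTC-1 line of mouse Leydig tumor cells, kept in medium with 10% fetal bovine serum. Cells were transiently transfected at 20 nM with non-targeting control RNA 4611G (control, 4 arrays), with siRNA1 against *Mamld1* (4 arrays), or with siRNA2 against *Mamld1* (3 arrays). All groups share the line, the transfection reagent Lipofectamine RNAiMAX and the 48 hours between transfection and RNA extraction; the methods also add hCG before harvest, which the labels do not name. The labels do not say whether replicates were separate cultures, and the methods speak of arrays run in triplicate, so p-values measure the spread between these samples only, which may be technical.

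Laminins are secreted trimers of an alpha, a beta and a gamma chain that assemble into sheets at the cell surface. Nidogens and the heparan sulfate proteoglycans perlecan and agrin link the laminin sheet to a network of type IV collagen, and integrins and dystroglycan anchor it to the cell. In the testis, a basement membrane lies under the seminiferous epithelium, and Leydig cells lie in the interstitium between the tubules.

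*Lama2* encodes the alpha2 chain of the laminin known as merosin, which binds dystroglycan and integrins, and *Col4a5* encodes the alpha5 chain of type IV collagen. The 250 bases before the transcription start are shown for these genes because the signal of *Lama2* differed most from control with both siRNAs, and because *Col4a5* had the largest difference between the siRNAs among the 30 other members tested. The sequences are from RefSeq (GRCm38.p6), 5′ to 3′ on the strand of the gene, at chr10:27616943-27617192 (minus strand) for *Lama2* and at chrX:141475169-141475418 (plus strand) for *Col4a5*. The capitals mark TGGGAA, the core of the motif bound by the Notch pathway factor *Rbpj*, searched on both strands.
Lama2: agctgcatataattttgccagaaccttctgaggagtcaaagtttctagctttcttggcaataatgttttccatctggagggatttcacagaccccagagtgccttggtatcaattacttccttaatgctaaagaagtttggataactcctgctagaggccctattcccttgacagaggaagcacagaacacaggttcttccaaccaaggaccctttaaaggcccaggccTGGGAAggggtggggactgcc
Col4a5: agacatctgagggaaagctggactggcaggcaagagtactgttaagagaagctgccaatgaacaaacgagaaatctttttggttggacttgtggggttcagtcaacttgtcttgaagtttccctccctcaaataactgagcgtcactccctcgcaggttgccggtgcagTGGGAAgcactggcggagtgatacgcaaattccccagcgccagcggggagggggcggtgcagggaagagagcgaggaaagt

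The motif starts 21 bases before the start of *Lama2* and 81 bases before that of *Col4a5*. TGGGAA occurs in 21.6% of all 32851 promoter windows of this length, and in a window of 10 of the 30 members that the promoter table holds. The first is a share of windows and the second a count of genes, which can have several windows, so they cannot be compared. *Lamb3* has 2 windows, each with 1 match, and *Nid2* is not among the windows. CACGTG, the E-box, is in 6.02% of all windows and in neither sequence shown, and CACNAG, the N-box, is in 36.7% of all windows and in that of *Col4a5*. A match describes letters only.

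Of the 44 genes, 42 have a named probe, 66 probes in all, and *Lama3* and *Hspg2* (perlecan) were not analysed here. A probe was tested where all arrays of 1 or more groups read well above background, which left 42 probes of 31 members. The signal is given in percent, with the geometric mean of the controls at 100%, after scaling each array to its 75th percentile; this percentile ranged from 469.7 to 774 over the arrays, and 58.6% to 62.6% of the spots were well above background. Levels of different probes cannot be compared with each other. *Mamld1*, the target, checks the labels and was lower with both siRNAs, by a log2 difference of -0.93 ± 0.20 (SE, adjusted p = 0.00571) with siRNA1 and -0.77 ± 0.22 (adjusted p = 0.0309) with siRNA2. All 7 Leydig cell markers were well above background on all arrays. With siRNA1, *Cyp17a1* and *Lhcgr* fell, by 0.92 and 0.63 on the log2 scale (adjusted p = 0.000216 and 0.00285). With siRNA2, *Cyp17a1* fell by 0.48 (adjusted p = 0.0237). This is 28.6% and 14.3% of the markers lower, where 18.7% and 12.2% of all genes tested were lower. None rose at an adjusted p of 0.05 or less. The largest rise was that of *Insl3* with siRNA2, by 0.82, at 150% to 231% against 74.0% to 120% in control. The median over the 7 markers was -0.16 with siRNA1 and 0.16 with siRNA2.

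*Lama2* was low on every array of both siRNAs. Its brighter probe lies on 10 spots per array. The control arrays gave 104%, 98.9%, 95.8% and 101%, a mean of 100.05% ± 3.58 (SD, n = 4). siRNA1-transfected MLTCs gave 11.9%, 13.8%, 10.2% and 10.9%, a mean of 11.7% ± 1.54 (SD, n = 4). siRNA2-transfected MLTCs gave 18.5%, 17.8% and 18.0%, on average 18.1% ± 0.382 (SD, n = 3). No array of 1 group overlapped with those of another group, and the siRNA1 arrays were the lowest. The log2 difference from control was -3.10 with siRNA1 and -2.47 with siRNA2. Within slides, it was -3.21, -3.01 and -3.09 with siRNA1, and -2.49, -2.43 and -2.45 with siRNA2. In a bulk sample, fewer cells that hold a transcript and less of it per cell cannot be told apart.

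The repeated spots give the technical error of this probe within 1 array. The median SD of the log2 signal over the spots of an array was 0.066 in the control arrays, 0.215 in the siRNA1 arrays and 0.131 in the siRNA2 arrays, against an SD between arrays of 0.052, 0.185 and 0.030. An array value is a mean over these spots, for which the spread between spots gives an error of 0.021, 0.070 and 0.041. The SD between arrays was larger than this error in control and with siRNA1, and smaller with siRNA2. The highest single spot of any siRNA2 array read 20.7%, and the lowest spot of any control array read 89.0%. After normexp background correction, with a few extreme local backgrounds replaced, the log2 differences from control were -1.48 and -1.17.

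The second *Lama2* probe, on 1 spot, also read low. Its control arrays gave 99.5%, 125%, 100.5% and 80.0%. With siRNA1, the arrays read 13.7%, 19.7%, 16.4% and 14.0%, and 2 of these 4 were well above background. With siRNA2, the arrays read 22.2%, 18.5% and 20.3%. The log2 differences from control were -2.66 and -2.30. The difference between the siRNAs was not what chose *Lama2*, but it uses the same siRNA arrays that did. By the brighter probe it was -0.64 ± 0.10 (SE, siRNA1 minus siRNA2, adjusted p = 0.000999). With slide as a block it was -0.63 (adjusted p = 0.00176), and by the second probe -0.36 (adjusted p = 0.14). By the brighter probe it was 0.15 after normexp background correction without replaced backgrounds, a change of sign.

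**Figure D1:**
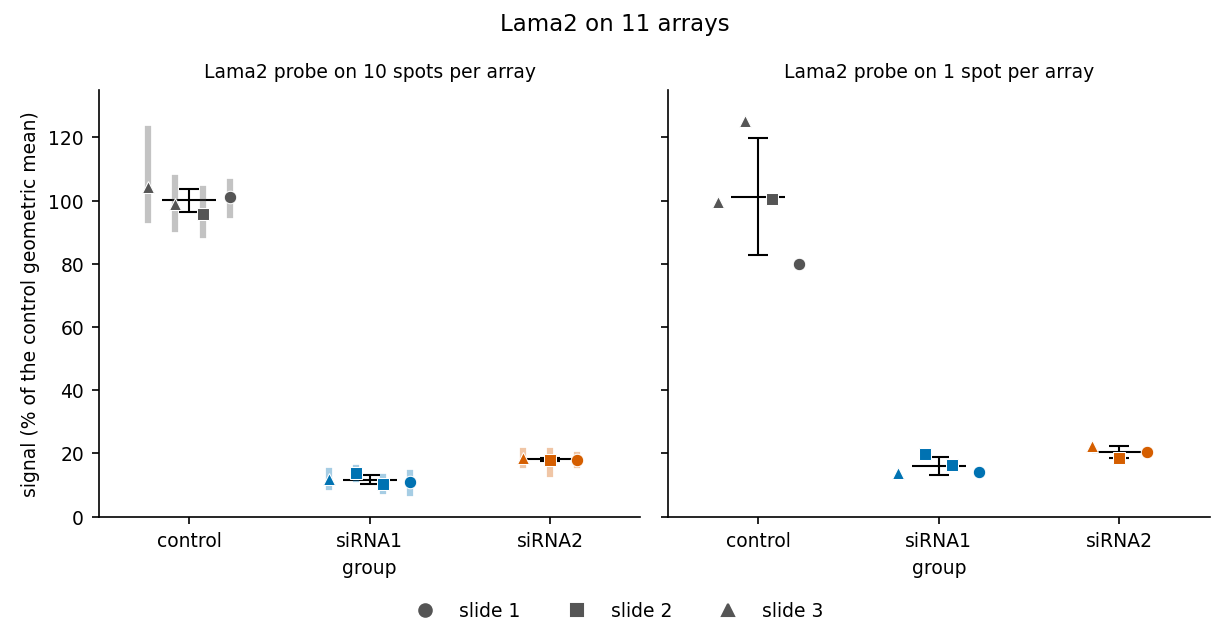
*Lama2* signal on each of the 11 arrays, in percent of the control geometric mean, for the probe on 10 spots (left) and the probe on 1 spot (right). Points are arrays, their shape gives the slide, pale bars run from the lowest to the highest spot, and black lines give the mean and SD; the siRNA arrays read 10.2% to 18.5% on the left, with siRNA1 below siRNA2.

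With siRNA1, falls outnumbered rises both among the 30 other members tested and among all genes tested. With siRNA1, 8 members fell and 1 rose at an adjusted p of 0.05 or less, and 21 did not pass. This is 26.7% of the members lower and 3.33% higher, where 18.7% of all 11822 genes tested were lower and 10.6% were higher. The median log2 difference was -0.13 over the members and -0.08 over all genes. *Col4a5* and *Lamb3* passed 2-fold, as did 3.09% of all genes. The count of 8 was 5 when control replicate 3 or 4, or siRNA1 replicate 1 or 3, was left out.

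With siRNA2, 2 members fell, none rose and 28 did not pass. All genes tested gave 12.2% lower and 8.04% higher, and the members gave 6.67% lower. The median was 0.03 over the members and -0.02 over all genes. *Nid2* alone passed 2-fold, as did 2.45% of all genes. *Nid2* was well above background on 1 of 3 siRNA2 arrays and passed the filter through control and siRNA1, so the filter favors a fall. Of the 26 members above background on all arrays, 1 was lower (3.85%) and none was higher. The share of all genes by that stricter filter is not given. By limma without adjustment, 4 members were higher at a p of 0.05 or less; by the methods' t-test without adjustment, 1 was. With slide as a block, 3 were higher after adjustment (*Itga9*, *Lamb2* and *Mmp14*). For these 3 settings no share of all genes is given, so the counts cannot be read as a trait of the members. Both comparisons use the same 4 control arrays.

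**Figure D2:**
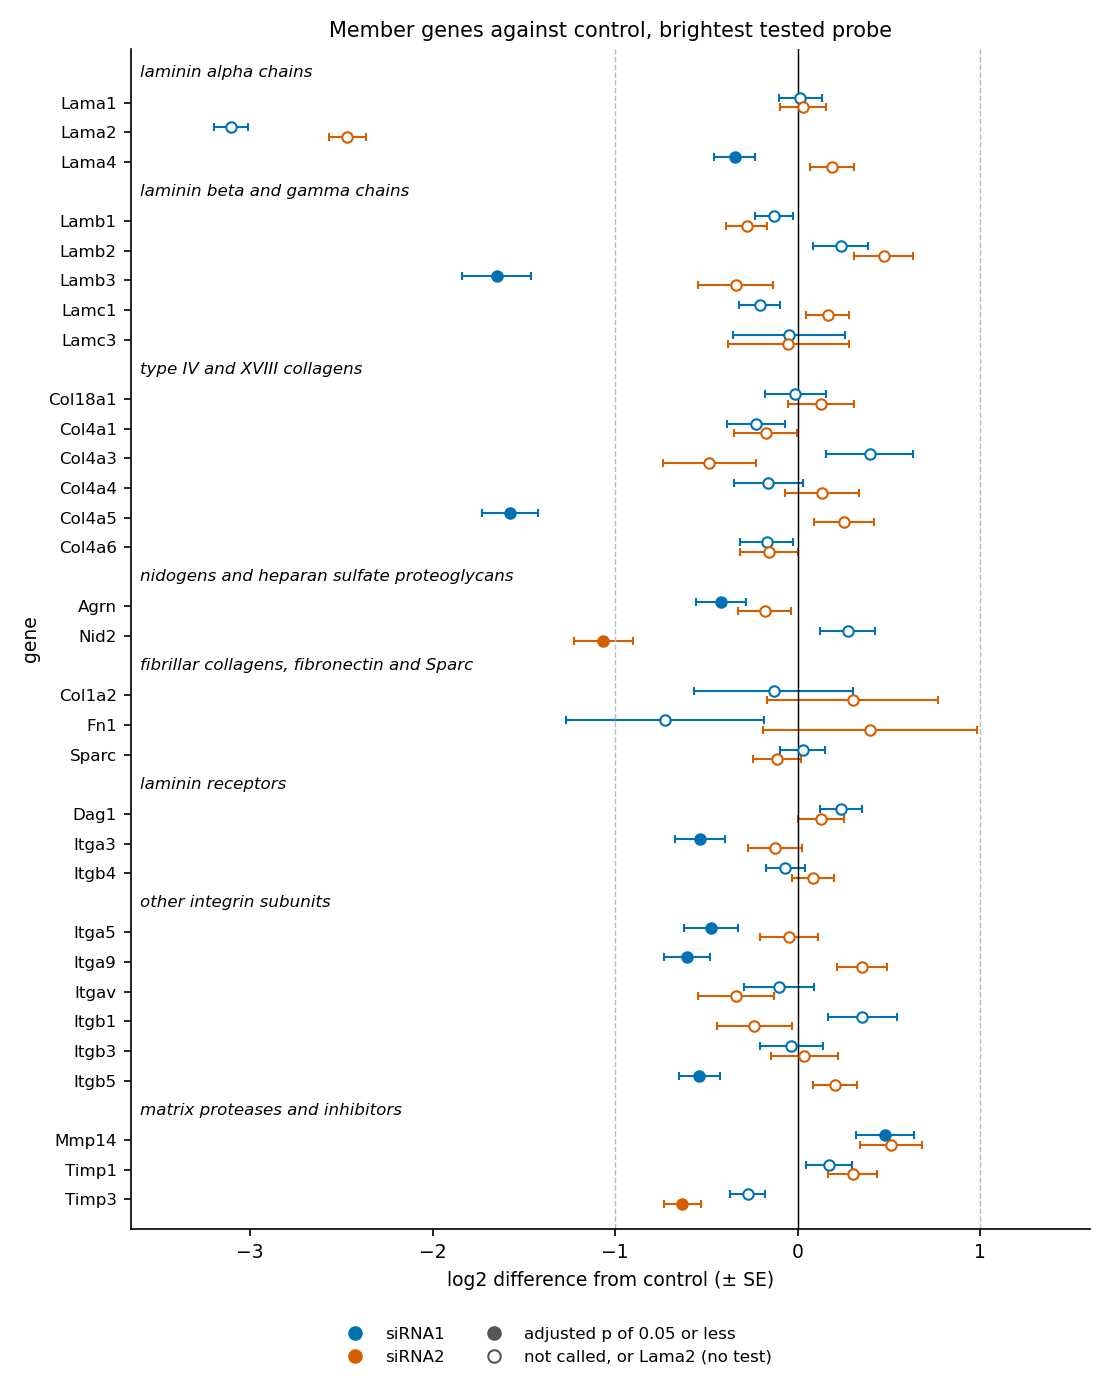
Log2 difference from control of the 31 members tested, by family, for siRNA1 (blue) and siRNA2 (orange), as the brightest tested probe of each gene with its standard error. Filled points have an adjusted p of 0.05 or less, and dashed lines mark 2-fold; *Lama2* is drawn open, since it has no test against control, and 9 members other than *Lama2* are filled for siRNA1 and 2 for siRNA2.

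Of the other laminin alpha chains, *Lama1* and *Lama4* were tested, and the probes of *Lama5* were not above background. *Lama4*, a chain of endothelial and mesenchymal laminins, fell with siRNA1. The control arrays gave 91.0% to 118%, the siRNA1 arrays 70.2% to 89.8%, and the siRNA2 arrays 103% to 121%. The log2 difference was -0.34 ± 0.11 (SE, adjusted p = 0.0393) with siRNA1 and 0.19 (adjusted p = 0.338) with siRNA2. A second *Lama4* probe gave -0.33 (adjusted p = 0.0199) with siRNA1 and the last one gave -0.25 (adjusted p = 0.122). The call was lost without control replicate 3 or 4, without siRNA1 replicate 1, 2 or 3, and under 6 other alternatives, with values from -0.52 to -0.27 and adjusted p from 0.00529 to 0.257 over all 25 alternatives. *Lama1*, the alpha chain of the laminin of early embryos, differed from control by 0.02 with siRNA1 (adjusted p = 0.938) and 0.03 with siRNA2 (adjusted p = 0.917).

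Of the beta and gamma chains, *Lamb3* fell with siRNA1 and the others did not pass against control. *Lamb3* encodes the beta3 chain, a part of the laminin of epidermal basement membranes. The control arrays gave 88.9%, 86.9%, 117% and 111%. The siRNA1 arrays gave 41.4%, 36.5%, 28.6% and 24.0%. The siRNA2 arrays gave 68.0%, 71.8% and 101%. All siRNA1 arrays lay below all others, and the siRNA2 arrays overlapped with control. Against control, the log2 difference was -1.65 ± 0.19 (SE, adjusted p = 0.000107) with siRNA1 and -0.34 ± 0.20 (adjusted p = 0.31) with siRNA2. With slide as a block, the value for siRNA1 was -1.67 (adjusted p = 0.000477), and within slides it was -2.21, -1.86 and -1.09.

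*Lamb1* and *Lamc1*, the beta and gamma chains found in most laminins, differed from control by -0.13 and -0.21 with siRNA1 and by -0.28 and 0.16 with siRNA2. *Lamb2*, the beta chain of synaptic and glomerular laminins, differed by 0.24 with siRNA1 and by 0.47 ± 0.16 (SE, adjusted p = 0.069) with siRNA2. With slide as a block, the value of *Lamb2* with siRNA2 was 0.41 (adjusted p = 0.00507). *Lamc3* differed by -0.05 with each siRNA, with a standard error of 0.31 and 0.33, and was well above background on 2 of 3 siRNA2 arrays.

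Among the collagens of the basement membrane, 6 of 7 were tested and *Col4a5* was the only one to pass against control. Type IV collagen is built of trimers of 6 chains, of which alpha3, alpha4 and alpha5 form the network of the mature glomerulus. The control arrays of *Col4a5* gave 96.9%, 100.6%, 105% and 98.0%. siRNA1-transfected MLTCs gave 25.5%, 38.3%, 36.6% and 35.4%. siRNA2-transfected MLTCs gave 151%, 117% and 96.7%. All siRNA1 arrays lay below all others, while control and siRNA2 overlapped. On the log2 scale, the difference was -1.58 ± 0.15 (SE, adjusted p = 3.4e-05) with siRNA1 and 0.26 ± 0.16 (adjusted p = 0.347) with siRNA2. Within slides, the value was -1.47, -1.48 and -1.95 with siRNA1, and -1.61 with slide as a block (adjusted p = 0.000137).

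*Col4a3* read low on all arrays, and 3 control arrays, all 4 siRNA1 arrays and 1 siRNA2 array were well above background. Its log2 difference was 0.39 with siRNA1 (adjusted p = 0.251) and -0.48 with siRNA2 (adjusted p = 0.238). *Col4a1*, *Col4a4* and *Col4a6* differed from control by -0.23, -0.16 and -0.17 with siRNA1 and by -0.18, 0.13 and -0.16 with siRNA2. *Col18a1*, whose C-terminal fragment is endostatin, differed by -0.01 and 0.13. The probes of *Col4a2* were not above background.

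Of the linkers, *Nid2* fell with siRNA2 and *Agrn* fell with siRNA1. *Nid2* encodes nidogen-2, which bridges laminin and type IV collagen. The control arrays of *Nid2* gave 99.2%, 98.1%, 122% and 84.5%. With siRNA1, the arrays read 101%, 115%, 130.1% and 142%. With siRNA2, the arrays read 52.9%, 53.0% and 39.1%. All siRNA2 arrays lay below all others, and 1 of them was well above background. The log2 difference was -1.06 ± 0.16 (SE, adjusted p = 0.00095) with siRNA2 and 0.27 ± 0.15 (adjusted p = 0.203) with siRNA1. Within slides, the value with siRNA2 was -1.11, -1.20 and -0.90. It was -1.07 with slide as a block (adjusted p = 0.00138).

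*Agrn*, the proteoglycan agrin, gave 90.6% to 110% in control, 65.8% to 90.4% with siRNA1 and 76.1% to 109% with siRNA2. Its log2 difference was -0.42 ± 0.14 (SE, adjusted p = 0.0408) with siRNA1 and -0.18 (adjusted p = 0.474) with siRNA2. The call was lost without control replicate 2, 3 or 4, without siRNA1 replicate 1, 2 or 3, and without siRNA2 replicate 2. The probe of *Nid1*, which encodes nidogen-1, was not above background.

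No member among the fibrillar collagens and matrix glycoproteins passed by limma, with or without adjustment. *Sparc*, a collagen-binding protein of the matrix, differed by 0.03 with siRNA1 and -0.11 with siRNA2. *Col1a2*, the alpha2 chain of type I collagen, differed by -0.13 and 0.30, with standard errors of 0.43 and 0.47. *Fn1*, fibronectin, was well above background on 2 control, 1 siRNA1 and 3 siRNA2 arrays, and differed by -0.73 and 0.40, with standard errors of 0.54 and 0.59. The probes of *Col1a1* were not above background, and of *Col3a1* 1 probe was, on 1 control array.

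Of the laminin receptors, *Dag1*, *Itga3* and *Itgb4* were tested. *Dag1* encodes dystroglycan, the laminin receptor of the dystrophin complex, and differed from control by 0.24 with siRNA1 (adjusted p = 0.159) and 0.13 with siRNA2 (adjusted p = 0.576). *Itga3*, a laminin-binding integrin subunit, fell by its brighter probe with siRNA1, by 0.53 ± 0.14 on the log2 scale (SE, adjusted p = 0.0143). With siRNA2 this probe gave -0.12 (adjusted p = 0.662). The dimmer *Itga3* probe gave 0.02 (adjusted p = 0.949) and 0.12 (adjusted p = 0.703), so the probes of this gene disagree. *Itgb4*, the partner of *Itga6* in hemidesmosomes, differed by -0.07 and 0.09. *Itga6* was well above background on 3 control, 3 siRNA1 and 1 siRNA2 arrays and was not tested, and the probes of *Itga7* were not above background.

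Among the other integrin subunits, *Itga5*, *Itga9* and *Itgb5* fell with siRNA1, and none passed with siRNA2 by limma. There, 1 of the 6 tested had an unadjusted p of 0.05 or less, a count for which no share of all genes is given. *Itga9*, which with *Itgb1* binds tenascin and other ligands, gave 89.0%, 88.6%, 115% and 110.5% in control. The siRNA1 arrays gave 58.2%, 64.2%, 68.0% and 73.3%. The siRNA2 arrays gave 108%, 133% and 144%. All siRNA1 arrays lay below all others. Against control, the log2 difference was -0.61 ± 0.13 (SE, adjusted p = 0.0047) with siRNA1 and 0.35 ± 0.14 (adjusted p = 0.104) with siRNA2. With slide as a block, these were -0.68 (adjusted p = 0.00011) and 0.30 (adjusted p = 0.0125). On the 3 slides, siRNA1 gave -0.59, -0.80 and -0.61, and siRNA2 gave 0.38, 0.22 and 0.28.

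*Itgb5*, which pairs with the alphav subunit to bind vitronectin, gave 93.7%, 94.2%, 98.9% and 115% in control. siRNA1-transfected MLTCs gave 59.8%, 72.3%, 67.8% and 76.6%. siRNA2-transfected MLTCs gave 101%, 115% and 131%. The siRNA1 arrays lay below all others, and the siRNA2 arrays overlapped with control. On the log2 scale, the difference was -0.54 ± 0.11 (SE, adjusted p = 0.00469) with siRNA1 and 0.21 ± 0.12 (adjusted p = 0.298) with siRNA2. Within slides, the value with siRNA1 ranged from -0.65 to -0.50, and it was -0.58 with slide as a block (adjusted p = 0.000178).

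*Itga5*, the alpha subunit of the fibronectin receptor, differed from control by -0.48 ± 0.15 (SE, adjusted p = 0.0334) with siRNA1 and by -0.05 (adjusted p = 0.893) with siRNA2. Its call was lost without control replicate 3 or 4 and without siRNA1 replicate 1, 3 or 4. *Itgb1*, the beta subunit shared by most laminin and collagen receptors, lies on 10 spots and differed by 0.35 ± 0.19 (SE, adjusted p = 0.197) and -0.24 ± 0.21 (adjusted p = 0.506). *Itgav* and *Itgb3*, which together form the vitronectin receptor, differed by -0.10 and -0.03 with siRNA1 and by -0.34 and 0.04 with siRNA2. *Itga1*, a collagen receptor subunit, was well above background on 1 control, 1 siRNA1 and 2 siRNA2 arrays, and *Itga2* was not above background.

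Of the proteases and inhibitors, *Timp3* fell with siRNA2 and *Mmp14* rose with siRNA1. *Timp3* encodes a metalloproteinase inhibitor that stays bound to the matrix. The control arrays gave 107%, 90.5%, 95.4% and 108%. With siRNA1, the arrays read 88.0%, 82.8%, 84.5% and 76.1%. With siRNA2, the arrays read 73.1%, 60.4% and 60.9%. The groups did not overlap, with siRNA2 the lowest. The log2 difference was -0.63 ± 0.10 (SE, adjusted p = 0.00155) with siRNA2 and -0.27 ± 0.095 (adjusted p = 0.0546) with siRNA1. Within slides, the value with siRNA2 was -0.83, -0.66 and -0.43, and it was -0.62 with slide as a block (adjusted p = 0.00234).

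*Mmp14*, a metalloproteinase anchored in the cell membrane that activates *Mmp2*, gave 78.9% to 112% in control, 108% to 178% with siRNA1 and 128% to 155% with siRNA2. Its log2 difference was 0.48 ± 0.16 (SE, adjusted p = 0.0438) with siRNA1 and 0.51 ± 0.17 (adjusted p = 0.0613) with siRNA2. A second probe gave 0.53 (adjusted p = 0.0205) and 0.45 (adjusted p = 0.0755). With slide as a block, the value with siRNA2 was 0.46 (adjusted p = 0.037). The call with siRNA1 was lost without any 1 of the 4 control arrays, without siRNA1 replicate 2, 3 or 4, and without siRNA2 replicate 2 or 3. *Timp1*, a soluble inhibitor, differed by 0.17 and 0.30. *Timp2* was well above background on 1 siRNA1 array, and *Mmp2*, a gelatinase that cleaves type IV collagen, was not above background.

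**Figure D3:**
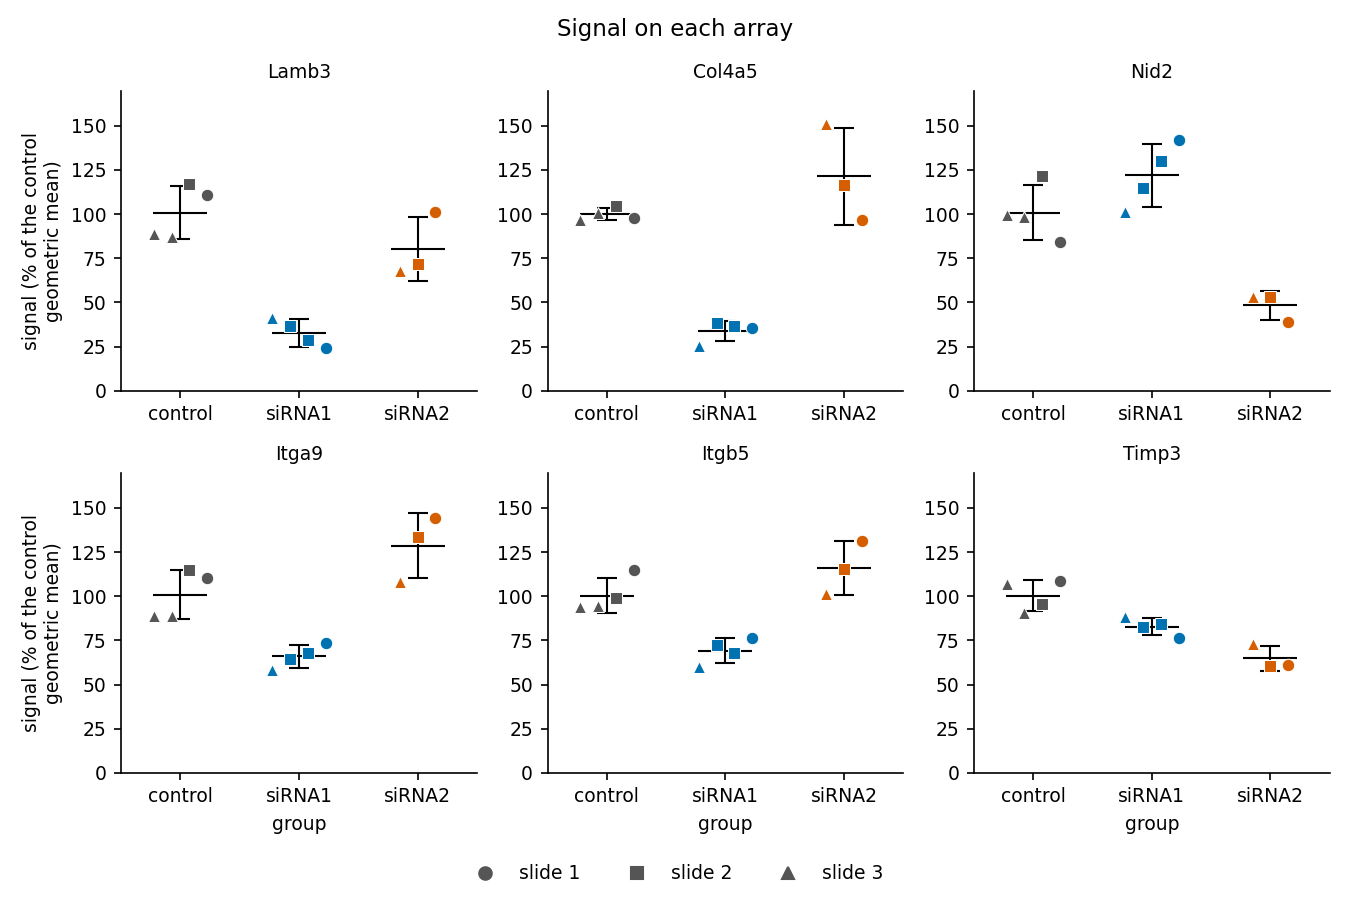
Signal of *Lamb3*, *Col4a5*, *Nid2*, *Itga9*, *Itgb5* and *Timp3* on each of the 11 arrays, in percent of the control geometric mean. Points are arrays, their shape gives the slide, and black lines give the mean and SD of a group; *Lamb3* and *Col4a5* read 24.0% to 41.4% with siRNA1, and *Nid2* reads 39.1% to 53.0% with siRNA2.

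The siRNAs were also compared with each other, which asks whether their effects on a gene differ. Of the 30 members other than *Lama2*, 6 were lower and 3 were higher with siRNA1 than with siRNA2, and 21 did not pass. Of all genes tested, 14.4% were lower and 11.8% were higher. The median was -0.14 over the members and -0.07 over all genes. *Lamb3*, *Col4a5* and *Nid2* passed 2-fold, as did 3.53% of all genes. The count of 3 higher was 1 without siRNA1 replicate 3 or siRNA2 replicate 2 or 3. *Nid2* and *Col4a3*, which are 2 of these 3, read above background on 1 of 3 siRNA2 arrays and passed the filter through groups in which they were high, so the filter favors a difference. Of the 26 members above background on all arrays, 1 was higher (3.85%) and 6 were lower (23.1%). The shares of all genes given above are for all genes tested, and those by this stricter filter are not given.

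*Col4a5* was lower with siRNA1 than with siRNA2, by a log2 difference of -1.83 ± 0.16 (SE, adjusted p = 2.37e-05), and on the 3 slides the value was -1.45, -1.64 and -2.57. For *Lamb3* it was -1.31 ± 0.20 (adjusted p = 0.000874), with -2.08, -1.15 and -0.72 on the slides. *Nid2* was higher with siRNA1, by 1.34 ± 0.16 (SE, adjusted p = 0.000157), with 1.86, 1.20 and 0.93 on the slides. These 3 genes kept their calls with slide as a block, at -1.86 (adjusted p = 9.05e-05), -1.32 (adjusted p = 0.00232) and 1.31 (adjusted p = 0.000368).

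The integrin subunits *Itga9* and *Itgb5* were lower with siRNA1 than with siRNA2, by -0.96 (adjusted p = 0.000481) and -0.74 (adjusted p = 0.00115). *Lama4* differed by -0.53 (adjusted p = 0.00772), and its other probes by -0.47 (adjusted p = 0.00465) and -0.44 (adjusted p = 0.0202). *Lamc1* differed by -0.37 (adjusted p = 0.0427), a call lost without control replicate 1, 2 or 3, siRNA1 replicate 1 or 2, or siRNA2 replicate 1 or 3. *Timp3* was higher with siRNA1, by 0.36 (adjusted p = 0.0271), and the value of *Col4a3*, which passed the filter only through siRNA1, was 0.88 ± 0.26 (SE, adjusted p = 0.0285), and -0.015 after normexp with the extreme local backgrounds replaced. Without siRNA1 replicate 2 or 3 or siRNA2 replicate 2 or 3 neither of these passed, nor did *Timp3* without siRNA1 replicate 1 or *Col4a3* without siRNA1 replicate 4. The dimmer *Col4a6* probe gave 0.44 (adjusted p = 0.0352), and the brighter one -0.01 (adjusted p = 0.962). *Mmp14* differed by -0.03, with a 95% interval from -0.41 to 0.34. For *Itgb1* the value was 0.59 (adjusted p = 0.059); with a slide block it was 0.60 (adjusted p = 0.0263).

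**Figure D4:**
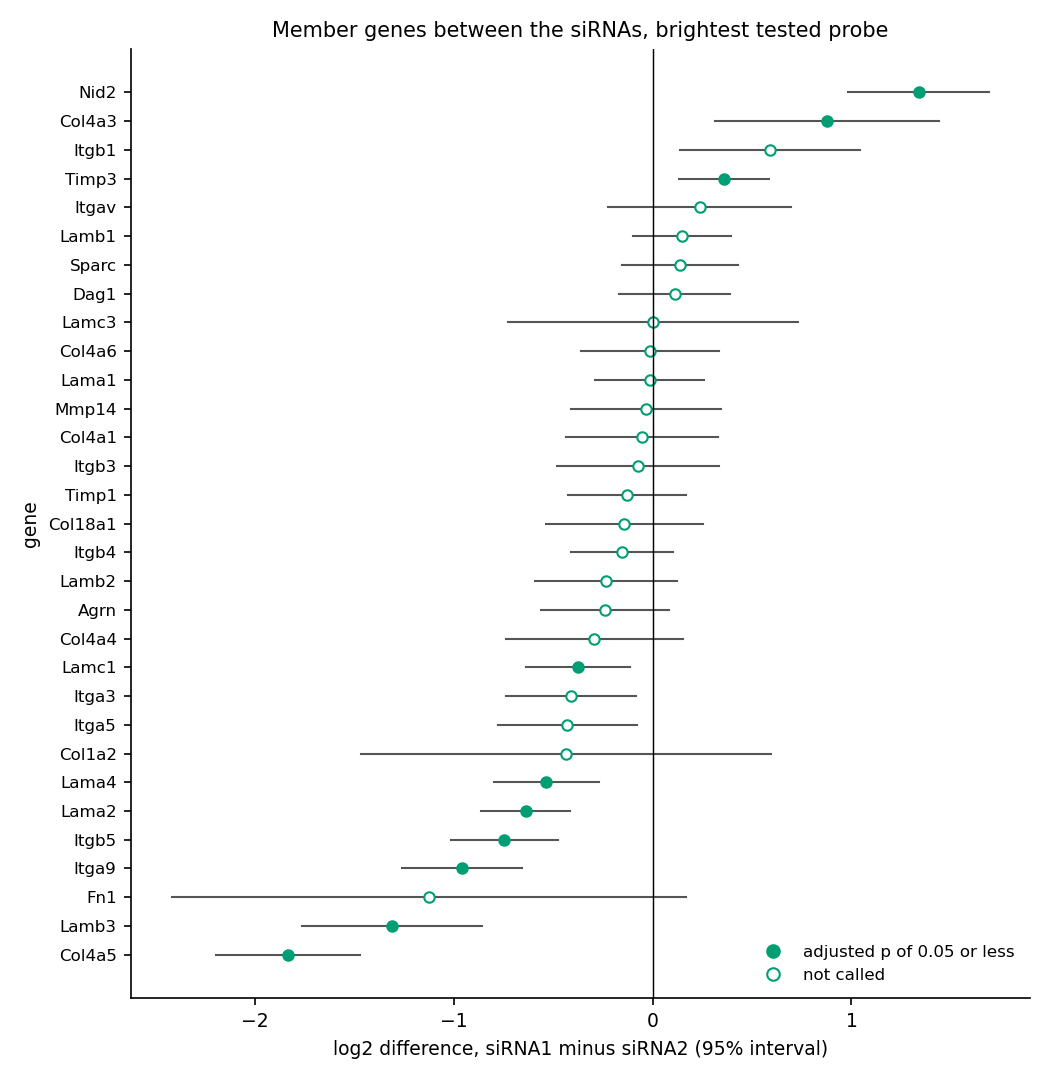
Log2 difference of siRNA1 minus siRNA2 for the 31 members tested, ordered by size, with 95% intervals. Filled points have an adjusted p of 0.05 or less; *Col4a5* at -1.83 and *Nid2* at 1.34 stand at the ends.

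The partners of these genes inside the cell were listed by complex. Of the dystrophin-glycoprotein complex, which ties dystroglycan to the cytoskeleton, 10 of 13 genes were tested. With siRNA1, 1 rose and 1 fell (10% each, against 10.6% and 18.7% of all genes). None passed with siRNA2 by limma, where all genes gave 8.04% higher and 12.2% lower. There, 3 had an unadjusted p of 0.05 or less, a count for which no share of all genes is given. *Sgcb*, which encodes a sarcoglycan, has probes that disagree with siRNA2, at -0.05 (adjusted p = 0.847) by the brighter and -0.82 (adjusted p = 0.000113) by the dimmer. Between the siRNAs, these probes gave 0.30 (adjusted p = 0.0911) and 1.07 (adjusted p = 1.34e-05). Of the genes that glycosylate dystroglycan so that it binds laminin, 12 of 13 were tested, and 1 rose and 2 fell with each siRNA (8.33% and 16.7%). All genes gave 10.6% and 18.7% with siRNA1, and 8.04% and 12.2% with siRNA2, so these shares are near those of all genes. *Pomt2*, a mannosyltransferase and 1 of those lower, has probes that disagree: the brighter gave -0.46 and -0.41 (adjusted p = 0.00292 and 0.0108), another 0.44 and 0.50 (adjusted p = 0.00509 and 0.00528), and the last 0.07 and -0.19 (adjusted p = 0.613 and 0.217).

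Of the integrin adhesion complex, 17 of 22 genes were tested, of which 4 rose and none fell with siRNA1 (0 fell by limma without adjustment), and 3 rose and 2 fell with siRNA2. This is 23.5% higher and 0% lower with siRNA1, and 17.6% higher and 11.8% lower with siRNA2. All genes gave 10.6% and 18.7% with siRNA1, and 8.04% and 12.2% with siRNA2. *Cd151*, a tetraspanin that binds laminin-binding integrins, gave 106%, 95.1%, 101% and 98.9% in control. The siRNA1 arrays gave 98.5%, 103%, 83.2% and 105%, and the siRNA2 arrays 34.5%, 35.9% and 36.4%. Only the siRNA2 arrays were low. Against control, the log2 difference was -1.49 ± 0.094 (SE, adjusted p = 3.54e-06) with siRNA2 and -0.04 (adjusted p = 0.752) with siRNA1, and between the siRNAs it was 1.45 (adjusted p = 2.75e-06). *Lims2*, an adaptor that binds integrin-linked kinase, was well above background on 1 control, 4 siRNA1 and 2 siRNA2 arrays, and passed the filter only through siRNA1. Its log2 difference with siRNA1 was 1.55 ± 0.31 (SE, adjusted p = 0.00348), against control arrays that mostly read at background, and without it 3 genes of the list rose with siRNA1. Of the other integrin subunits, 7 of 13 were tested, with 1 higher (14.3%) and 2 lower (28.6%) with siRNA1. With siRNA2, 1 was higher (14.3%) and none lower. *Itga2b*, a subunit of the platelet fibrinogen receptor, differed by -1.17 (adjusted p = 0.000304) between the siRNAs. It was not above background on all arrays, so the filter favors a difference. Of the 5 genes of this list above background on all arrays, none passed between the siRNAs. Over all 7 lists, 75 of 128 genes were tested, with 9 higher and 9 lower with siRNA1 (12% each) and 8 higher and 8 lower with siRNA2 (10.7% each), and a median of -0.04 and -0.0015, beside -0.08 and -0.02 over all genes.

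Markers of other cell types are given beside these results, since matrix genes are also expressed by such cells. Of the 8 markers of peritubular myoid cells and fibroblasts, 3 were well above background on all arrays and *Postn*, *Pdgfrb* and *Thy1* on none. Their summed signal, in percent of the 75th percentile of the array, was 1393 to 1776 in control, 1201 to 1746 with siRNA1 and 1233 to 1847 with siRNA2, and *Acta2* made up 90.0% to 97.8% of it. *Des*, which encodes desmin, fell with siRNA1, by 0.72 on the log2 scale (adjusted p = 0.00114), and gave -0.29 with siRNA2 (adjusted p = 0.158). Of the 6 endothelial markers, *Kdr*, *Tek*, *Emcn* and *Vwf* were not above background on any array, and *Pecam1* was on no control, 2 siRNA1 and 1 siRNA2 arrays. Their summed signal was 66.0 to 71.7 in control, 129 to 177 with siRNA1 and 112 to 136 with siRNA2. *Cdh5* made up 94.2% to 98.6% of it, and was higher by a log2 difference of 1.22 (adjusted p = 2.14e-05) and 0.84 (adjusted p = 0.000652). The part of the *Des* and *Cdh5* differences in the results above was not tested. Of the 6 Sertoli cell markers, 3 were well above background on all arrays and *Sox9* and *Wt1* on none; *Dhh* rose with siRNA2 by 0.72 (adjusted p = 0.00103). Their sum was 5129 to 7254, 4467 to 7388 and 5924 to 8154, and *Clu* made up 92.9% to 95.9% of it. No macrophage marker of the 5 with a probe was above background on all arrays, with a sum of 3.61 to 5.25, 2.90 to 4.20 and 2.90 to 3.26.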

How the data were processed

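RNA from MLTCs was measured on 11 single-color Agilent arrays of 4 control, 4 siRNA1 and 3 siRNA2 samples. Feature Extraction (version 9.5.1.1, per the file headers) made the deposited signal intensities, with background subtracted and no normalization between arrays. A deposited table of the authors' group averages served only to name probes.

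The log2 of the signal was scaled to the 75th percentile of each array over 43379 spots, without outlier spots, and repeated spots of a probe were averaged. A probe was tested when all arrays of 1 or more groups read well above background (24250 of 41174 probes), counting a probe on several spots as such when at least 0.5 of its spots were. Probes were named by RefSeq accessions (24375) or by the deposited table (17). The 3 groups were fitted together on all 11 arrays with limma (version 3.58.1) in R (version 4.3.3), with Benjamini-Hochberg adjustment over all tested probes. A gene is counted by its brightest tested probe, and called at an adjusted p of 0.05 or less, with the number at least 2-fold beside it. The precision is limited by the number of arrays.

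The members and lists were chosen with earlier results of these data known. All members are named. Values on every array are given for *Lama2* and for members called at 2-fold or more, and were added for *Itga9*, *Itgb5* and *Timp3*, and for *Cd151*, after the values were seen, as were the values of *Pomt2* and of markers that changed. Pathway genes are named where a probe is called at 2-fold or more, except for 1 that is not reported here. The fit was tested on simulated data. The 3 slides each held all groups.

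The alternatives were normexp background correction (offset 50), quantile normalization, median scaling, no filter, a filter on all 11 arrays, outlier spots kept, slide or replicate number as a block, separate fits, the methods' t-test, eBayes with trend and robust options, the mean over probes, and leaving out each array. Normexp with local backgrounds above 2 times the median of the array replaced by that median was added after seeing the data.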

Additional observations from a re-analysis of the deposited data

Results flagged for a closer look

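Differences between the siRNAs, tested in the same fit, were seen for *Lama2* and for 9 of the 30 other members tested (log2, siRNA1 minus siRNA2), where 14.4% of all genes were lower and 11.8% higher. The laminin chains differed by -0.64 for *Lama2*, -0.53 for *Lama4*, -1.31 for *Lamb3* and -0.37 for *Lamc1*. The collagens differed by 0.88 for *Col4a3* (which passed the filter only through siRNA1) and -1.83 for *Col4a5*. The linker *Nid2* differed by 1.34. It was above background on 1 of 3 siRNA2 arrays and passed the filter through control and siRNA1, so the filter favors this difference. The integrin subunits differed by -0.96 for *Itga9* and -0.74 for *Itgb5*, and the inhibitor *Timp3* by 0.36. Of the *Lama2* probes, the second did not pass.

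In 2 groups of 4 arrays, 1 array stood far from the others. For *Lamc1*, control replicate 4 read 114%, while the other 3 control arrays read 94.6% to 97.0%. For *Itga5*, siRNA1 replicate 1 read 58.3%, while the other 3 siRNA1 arrays read 75.2% to 78.2%. The control and siRNA1 arrays were checked in this way for *Lama2* and for each member called in any comparison. The siRNA2 group, with 3 arrays, was not checked. Chance sets apart 1 array in about 1 of 20 groups, and whether 2 exceed chance was not tested.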

How the results depend on the processing

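Normexp background correction changed most results. A few local backgrounds on 5 arrays were far above the others, and the log2 median of all probes moved to 0.22, 0.17 and 0.11 in the 3 comparisons. It left 0 members called higher or lower with siRNA1, 0 lower with siRNA2, and 0 in either direction between the siRNAs, and gave *Lama2* -0.36 and -0.50 against control. Signs changed for *Lama2* between the siRNAs (0.15), *Lamb3* (0.45 with siRNA1, 0.44 with siRNA2, 0.0075 between), *Lamc1* with siRNA2 (-0.0075), *Col4a3* with siRNA2 (0.55), *Col4a5* with siRNA1 (0.28), *Nid2* with siRNA2 (0.48), *Itga3* (0.36, 0.36 and 0.0042), *Itga5* (0.48, 0.41 and 0.077) and *Itgb5* with siRNA2 (-0.019). Relative to the median of all probes, 12 of these 15 signs still changed. With the extreme local backgrounds replaced, *Lama2* was at -1.48 and -1.17, the count lower with siRNA2 was 1, that higher with siRNA2 was 3, and signs changed for *Col4a3* (-0.16 with siRNA1, -0.015 between) and *Nid2* with siRNA1 (-0.15). Under this setting the median of all tested probes with siRNA1 was -0.11, beside -0.05 over the same probes in the fit that gave the results above. Relative to the median of all tested probes, 2 of these 3 signs still changed. The cause was not tested.

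The 1 member higher with siRNA1 (*Mmp14*) fell to 0 with median scaling, no filter, separate fits or the methods' t-test with adjustment. The 8 lower were 5 with median scaling, no filter or the t-test with adjustment. The 0 higher with siRNA2 were 1 with quantile normalization, separate fits or the t-test without adjustment, 2 with the trend and robust options, 3 with slide as a block and 5 with the replicate block. Shares of all genes under these alternatives are not given. With a filter on all 11 arrays, which leaves out *Nid2* and *Col4a3*, 1 member was lower with siRNA2 and 1 was higher with siRNA1 than with siRNA2, as was 1 with no filter. With the replicate block, 9 members were lower with siRNA1 and 2 with siRNA2, and the replicate number is not known to pair samples. Same-numbered arrays of different groups deviated from their group means with correlations from -0.18 to 0.53 (median 0.30, 7 of 10 pairs over 0.1), against a median of -0.10 for different numbers, and 9 of 11 arrays correlated best with their own number, a hint from the data only; arrays of 1 slide had a median of 0.30. Averaging over probes gave *Lama2* -2.88 and -2.38, ended the call of *Itga3*, and turned the uncalled difference of *Mmp14* between the siRNAs to 0.0245, as median scaling did (0.0084).

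Leaving out 1 array gave 0 to 1 members higher and 5 to 9 lower with siRNA1, 0 to 1 higher and 2 to 2 lower with siRNA2, and 1 to 4 higher and 5 to 7 lower between the siRNAs. The uncalled values of *Itga3* and *Itga5* with siRNA2 ranged from -0.22 to 0.0013 and from -0.18 to 0.026, and that of *Mmp14* between the siRNAs from -0.15 to 0.09. The calls of *Lamb3*, *Col4a5*, *Itga9* and *Itgb5* with siRNA1 and of *Timp3* with siRNA2 held in all alternatives but normexp, and those of *Nid2* in all but both normexp settings where it was tested. With siRNA1, the calls of *Lama4* and *Agrn* held in 14 of 25 alternatives, that of *Itga5* in 15 and that of *Mmp14* in 11. Between the siRNAs, those of *Lamc1* and *Timp3* held in 12 and 17 of 25, and that of *Col4a3* in 16 of 24.

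Dim members limit the reading: *Nid2*, *Col4a3*, *Fn1*, *Lamc3* and the second *Lama2* probe were not above background on all arrays, and 11 of the members with probes were not tested. Each group has 3 or 4 arrays, which limits the precision.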

Other observations

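Genes of matrix turnover and matrix assembly outside the members were listed too. Of 22 other genes of matrix proteolysis, 11 were tested, of which 1 rose and 3 fell with siRNA1 and 2 rose and 3 fell with siRNA2. This is 9.09% higher and 27.3% lower with siRNA1, where all genes gave 10.6% and 18.7%, and 18.2% and 27.3% with siRNA2, where all genes gave 8.04% and 12.2%.

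Of 16 genes that process or crosslink collagen, 10 were tested, and 1 rose with siRNA1 (10%) and none passed with siRNA2 by limma. With siRNA2, 2 had an unadjusted p of 0.05 or less, a count for which no share of all genes is given. Of 29 other basement membrane and matrix glycoproteins, 8 were tested. With siRNA1, 1 fell, and with siRNA2, 1 rose and 1 fell (12.5% each). For both lists, all genes gave 10.6% higher and 18.7% lower with siRNA1, and 8.04% and 12.2% with siRNA2.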
